A study of Mus musculus with 72 samples.

Results

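The Sult2a and Sult3a genes encode cytosolic sulfotransferases, and 9 of them were followed across mouse liver: Sult2a1, Sult2a2, Sult2a3, Sult2a5, Sult2a6, Sult2a7, Sult2a8, Sult3a1 and Sult3a2. They were taken by name and found in the count table through their Ensembl identifiers, 9 of the 51912 genes in it. The series holds 72 liver RNA libraries in 12 groups of 6, from females and males of DBA/2J and C57BL/6J, each kept on 1 of 3 diets labelled Control, Medium Protein and Low Protein. All mice started their diet at 10 weeks of age, stayed on it for 13 weeks at about 22 °C and gave liver at 23 weeks, having fasted for 16 h. Both strains are inbred lines, no allele or agent besides strain, sex and diet is named in the labels, and a further strain in the title of the series was not analysed here. Each sample title opens with an identifier that occurs once within its strain and sex, but the labels do not say that it names an animal, so p-values measure the spread between these libraries.

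Cytosolic sulfotransferases move a sulfate group from the donor PAPS to small molecules, which makes them more water soluble and easier to excrete. Enzymes of the SULT2A family act on hydroxysteroids such as dehydroepiandrosterone and on bile acids, and mouse Sult3a1 is known as an amine sulfotransferase. In rodent liver many genes of this kind are expressed at different levels in females and males, and the pattern of growth hormone release is known to set much of that difference.

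Whole libraries held 26.9 to 38.4 M counts, with a median of 32.4 M, and all 9 genes passed the filter on low counts that left 19362 genes tested. The filter asks for counts in as many libraries as a group holds. All genes but Sult2a7 and Sult2a8 passed it through females, and Sult2a6 through DBA/2J females alone. Counts of genes called for sex thus include genes that the filter kept for their level in females. Hepatocyte markers summed to 57346 to 108153 CPM (counts scaled to a common library size with TMM factors) in every library, with none of the 10 at 0. Markers of the adrenal cortex, another tissue known for Sult2a expression, summed to at most 4.83 CPM, and those of kidney and skeletal muscle to at most 0.216 and 0.687 CPM. Over all libraries the sums were 154 to 294 CPM for endothelial cells, 241 to 512 CPM for stellate cells, 72.5 to 342 CPM for macrophages and 13.0 to 61.1 CPM for lymphocytes. Some of the marker sets that moved with a comparison are given beside it, but not all of them. In 4 male libraries, 3 ribosomal-like features took over 5% of the counts, and results that change without these libraries are given with both values. In bulk tissue, fewer cells expressing a gene and less RNA per cell cannot be told apart.

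In GENCODE M21 (GRCm38), the 7 Sult2a genes lie within 870 kb on chromosome 7 and the 2 Sult3a genes within 113 kb on chromosome 10, and all are protein coding. The Sult2a genes are Sult2a5 (chr7:13623967-13670807, plus strand), Sult2a2 (chr7:13733505-13779636, plus), Sult2a1 (chr7:13796246-13837409, minus), Sult2a3 (chr7:14067446-14123044, minus), Sult2a6 (chr7:14222403-14254870, minus), Sult2a8 (chr7:14410686-14446769, minus) and Sult2a7 (chr7:14465051-14494230, minus). Sult3a2 lies at chr10:33766424-33786704 on the minus strand and Sult3a1 at chr10:33857721-33879532 on the plus strand. Their similarity decides how far a count can be tied to 1 gene, so a stretch of coding sequence is shown for each. The 60 bases were chosen as the gap-free stretch whose identities to Sult2a1 or Sult3a1 are nearest those over the whole coding sequence. Capitals mark bases that differ from Sult2a1 in the Sult2a genes and from Sult3a1 in Sult3a2.
Sult2a1: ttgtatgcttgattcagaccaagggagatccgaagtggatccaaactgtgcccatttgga
Sult2a2: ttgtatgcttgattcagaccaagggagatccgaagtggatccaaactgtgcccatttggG
Sult2a3: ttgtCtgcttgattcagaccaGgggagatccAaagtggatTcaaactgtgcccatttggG
Sult2a5: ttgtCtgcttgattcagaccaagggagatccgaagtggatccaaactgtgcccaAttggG
Sult2a6: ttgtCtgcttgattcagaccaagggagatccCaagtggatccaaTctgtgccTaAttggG
Sult2a7: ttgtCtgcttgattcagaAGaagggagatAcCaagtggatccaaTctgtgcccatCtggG
Sult2a8: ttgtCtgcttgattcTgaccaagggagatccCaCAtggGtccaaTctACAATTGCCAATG
Sult3a1: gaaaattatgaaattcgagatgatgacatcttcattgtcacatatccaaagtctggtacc
Sult3a2: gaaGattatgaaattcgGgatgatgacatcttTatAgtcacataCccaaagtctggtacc
Over the aligned coding sequence, Sult2a2 was 97.9% identical to Sult2a1, Sult2a5 94.9%, Sult2a3 93.7%, Sult2a6 89.7%, Sult2a7 81.3% and Sult2a8 68.1%. Sult3a2 was 90.9% identical to Sult3a1.

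RSEM divides a read that fits several genes between them, which gives counts that are not whole. Counts of Sult2a7 and Sult2a8 were whole in all female libraries, and all 50-base stretches of the Sult2a7 transcripts were found in no other gene. For Sult2a2, 37.9% of the 50-base stretches were its own, for Sult2a5 65.5% and for Sult2a1 66.8%, and the other 6 genes had 91.6% or more. At 100 bases the shares of these 3 genes were 65.4%, 83.4% and 88.6%, and those of the other 6 were 100%. Sult2a3 had counts that were not whole in 18 of 18 DBA/2J females against 1 of 18 C57BL/6J females, Sult2a6 in 18 against 0, and Sult3a1 and Sult3a2 each in 18 against 1. For Sult2a6 the C57BL/6J females held 23 counts in all, so its contrast says little about the division of reads. A value of Sult2a1, Sult2a2, Sult2a3, Sult2a5 or Sult2a6 alone is therefore less certain than their sum, and strain differences of single copies can also carry differences in how reads were divided. Sums of Sult2a1, Sult2a2, Sult2a3, Sult2a5, Sult2a6 and Sult2a7 (the Sult2a sum) and of Sult3a1 and Sult3a2 (the Sult3a sum) were tested beside the single genes. Sult2a4, which shares 50-base stretches with Sult2a1, Sult2a2, Sult2a3, Sult2a5 and Sult2a6, is not in the Sult2a sum. The division of reads with that gene can therefore still enter the sum.

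**Figure D1:**
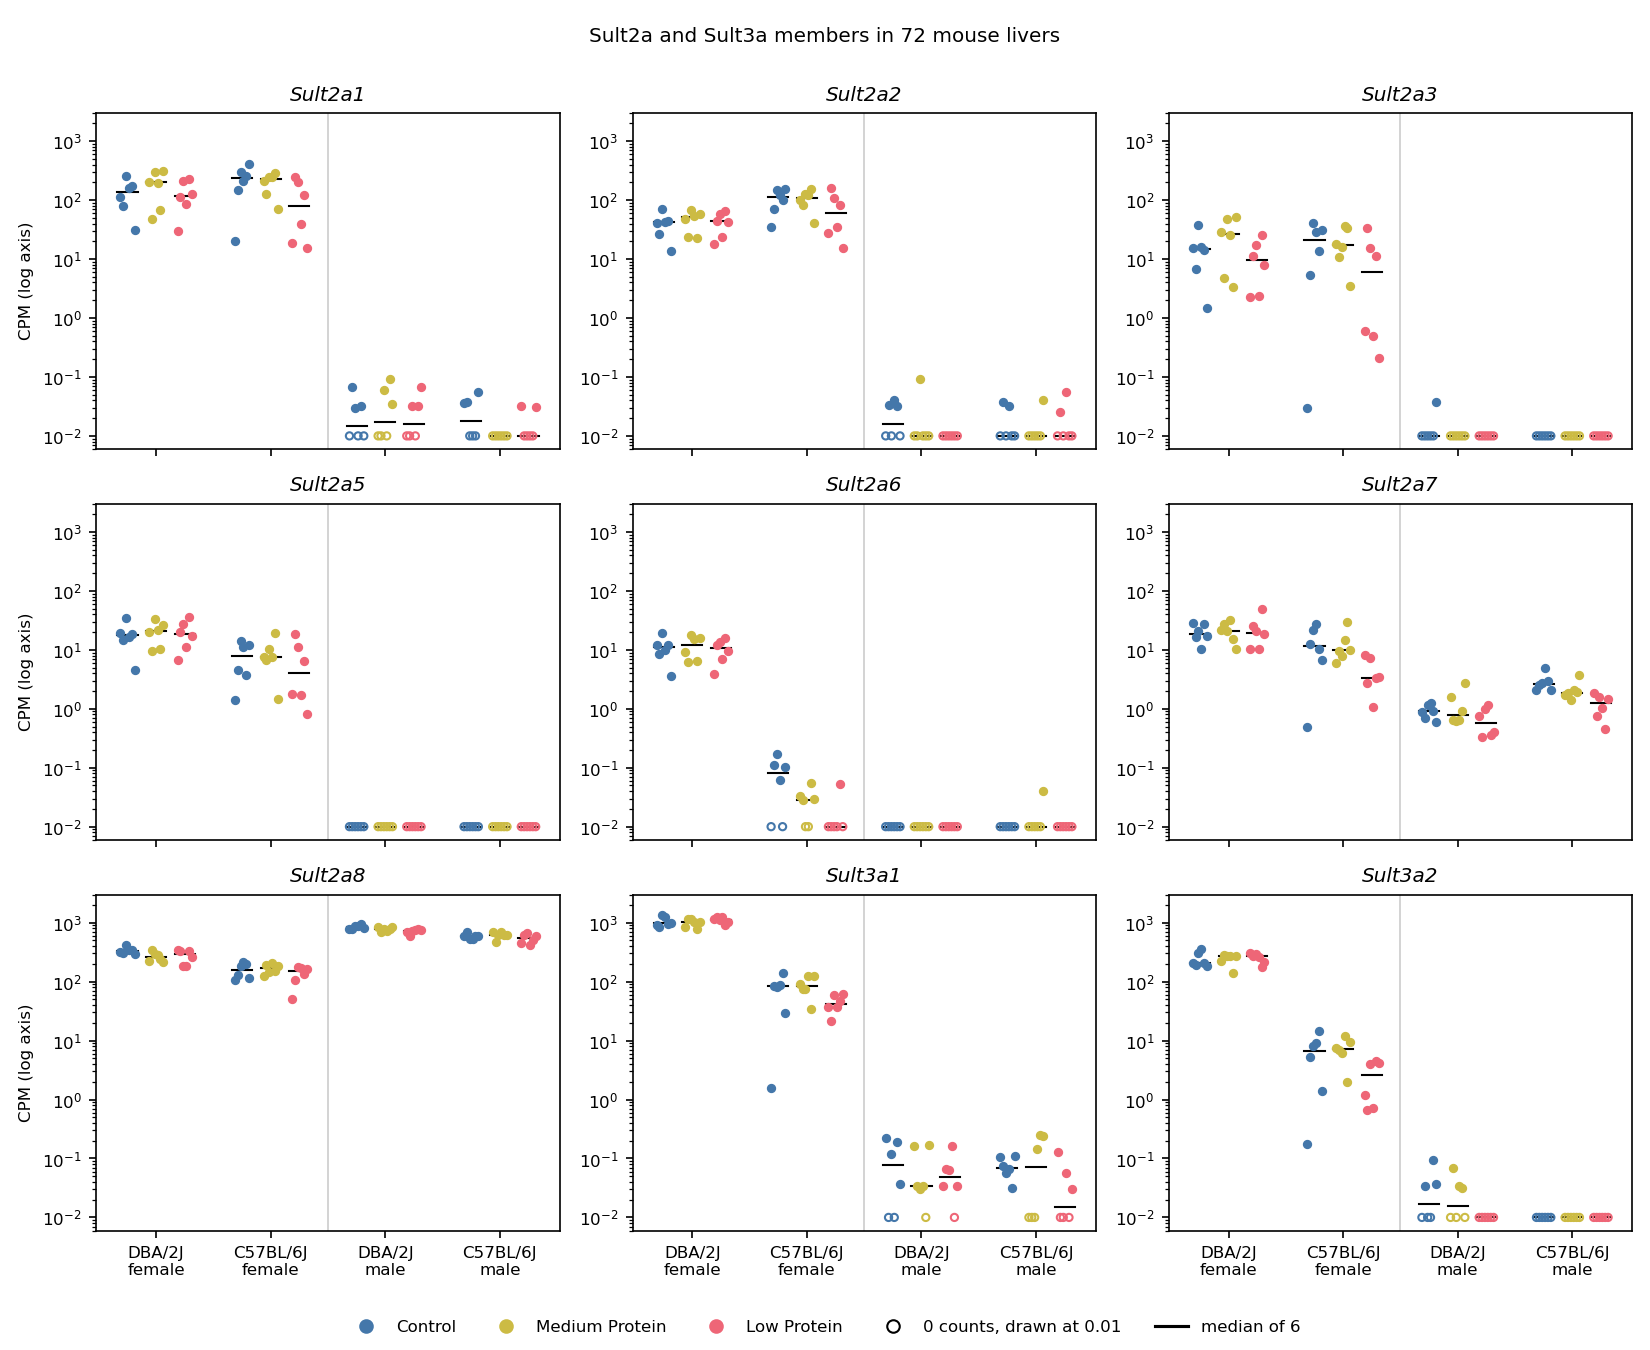
Level of each of the 9 genes in CPM per library (points) with the median of each group of 6 libraries (lines), in the 12 groups of strain, sex and diet, on a log axis; open points are libraries with 0 counts, drawn at 0.01. Sult2a8 is present in all libraries and is higher in males, Sult2a7 is above 0 in all libraries, and the other genes lie at or near 0 in males.

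The first comparison asks how far the livers of females and males differ. Females expressed 8 of the 9 genes at a higher level than males on the Control diet in both strains, and Sult2a8 was lower in females in both. For Sult2a1, Sult2a2, Sult2a3, Sult2a5, Sult3a1 and Sult3a2 levels in most females stood against no more than 7 counts in any male library. Of all genes tested, 9.18% were higher and 11.6% lower in C57BL/6J females than in males, and 7.85% were higher and 10.4% lower in DBA/2J females. The 4 red blood cell markers summed to 43.8 to 112 CPM in DBA/2J Control females against 198 to 286 CPM in males, and to 52.7 to 164 CPM in C57BL/6J females against 108 to 224 CPM in males. The 3 pancreatic acinar markers summed to 7.37 to 12.1 CPM in DBA/2J Control females against 14.1 to 24.8 CPM in males. In C57BL/6J they summed to 2.38 to 3.27 CPM against 3.12 to 6.19 CPM. The 3 adipocyte markers summed to 0.799 to 3.22 CPM in DBA/2J Control females against 1.74 to 9.80 CPM in males. In C57BL/6J they summed to 9.03 to 43.7 CPM against 3.25 to 10.8 CPM. The part of these markers in the results was not tested.

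Sult2a1, the hydroxysteroid and bile acid sulfotransferase that gives the family its name, ran from 31.2 CPM through a median of 137 to 258 CPM in DBA/2J Control females, against 0 to 0.0676 CPM in DBA/2J Control males. In C57BL/6J it ran from 20.3 through 233 to 410 CPM in Control females, against 0 to 0.0557 CPM in Control males. The groups lay far apart, and the lowest female stood far above the highest male in each strain. The 6 DBA/2J Control males held 4 counts in all. In C57BL/6J, with 3 counts over the 6 Control males, the ratio of pooled counts per library size was 12530 with a 95% exact interval of 4287 to 60760, which covers counting error only, as do all intervals and bounds here. The edgeR quasi-likelihood test gave an adjusted p (Benjamini-Hochberg over all genes tested) of 8.5e-16 in DBA/2J and 1.93e-16 in C57BL/6J.

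Sult2a2, the copy nearest to Sult2a1, averaged 39.8 ± 19.3 CPM in DBA/2J Control females against 0.0178 ± 0.0197 CPM in males (SD, n = 6 libraries in each group here and below). In C57BL/6J it averaged 104 ± 45.9 CPM in females against 0.0117 ± 0.0182 CPM in males. Sult2a5 had 0 counts in all 36 male libraries, which allows up to 0.00557 CPM over the 18 DBA/2J males and 0.00559 CPM over the 18 C57BL/6J males. On Control alone, with 3 counts over the 6 male libraries as the limit, pooled counts of Sult2a5 per library size were at least 1055-fold higher in DBA/2J females and at least 445-fold higher in C57BL/6J females. Sult2a3 had 1 count over all 36 males, in a DBA/2J Control library, and averaged 15.2 ± 12.2 CPM in DBA/2J Control females and 19.9 ± 15.8 CPM in C57BL/6J Control females. All 3 genes passed the test in both strains, with adjusted p no higher than 6e-05. With limma-voom, Sult2a3 did not pass it in either strain, at adjusted p = 0.254 in DBA/2J and 0.262 in C57BL/6J.

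Sult2a6 was measured at CPM levels in DBA/2J females and at single counts in C57BL/6J females. DBA/2J Control females had 3.64 to 19.6 CPM with a median of 11.0 CPM, against 0 counts in the DBA/2J males, at least 642-fold more. In C57BL/6J, Control females had 0 to 0.172 CPM, 16 counts over 6 libraries, against 0 counts in the males, a ratio of at least 4.40. The C57BL/6J call (edgeR adjusted p = 0.0412) was thus made at the edge of detection and held in 9 of 21 alternatives, between 0.00326 and 0.519. It was lost at adjusted p of 0.0535 to 0.0964 when any of the 6 male Control libraries, or female Control 2, 3 or 6, was left out. It was also lost without the 4 ribosomal-like libraries (4.42, adjusted p = 0.101), with no filter (0.0648) and with limma-voom (0.519).

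Sult2a7, the Sult2a copy with no shared 50-base stretch, was the only one of the female-high genes with counts above 0 in all males. It ran from 10.2 through 18.8 to 28.4 CPM in DBA/2J Control females, against 0.599 through 0.903 to 1.23 CPM in DBA/2J males. C57BL/6J Control females ran from 0.499 through 11.5 to 27.1 CPM, against 2.11 through 2.63 to 4.86 CPM in males. Females and males did not overlap in DBA/2J, and in C57BL/6J 5 of 6 females stood above all males while 1 stood below them. The log2 fold change was 4.44 ± 0.51 in DBA/2J (SE; adjusted p = 2.97e-10) and 2.18 ± 0.45 in C57BL/6J (adjusted p = 0.000214; 0.0688 with limma-voom), from edgeR.

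The sex difference of Sult2a7 itself differed between the strains. On Control it was larger in DBA/2J than in C57BL/6J by 2.26 ± 0.67 on the log2 scale (edgeR interaction, adjusted p = 0.0223; 8.39% of all genes were called in this comparison). Sult2a7 was the only one of the 9 genes called, and for genes at single counts in males the interaction rests on those few counts. DBA/2J females averaged 19.99 ± 6.95 CPM against 13.2 ± 9.77 CPM in C57BL/6J females, a difference that did not pass the test (edgeR adjusted p = 0.298; 0.557 without C57BL/6J female Control 1). DBA/2J males averaged 0.915 ± 0.243 CPM against 2.89 ± 1.03 CPM in C57BL/6J males, a difference that passed it (edgeR adjusted p = 0.011). The call was lost without C57BL/6J male Control 4 (2.05, adjusted p = 0.0522) and with limma-voom (2.85, adjusted p = 0.0814).

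Sult2a8, a mouse liver sulfotransferase that acts on bile acids, ran the other way. It had 300 through 330 to 414 CPM in DBA/2J Control females, against 781 through 842 to 951 CPM in DBA/2J Control males. C57BL/6J Control females had 105 through 159 to 214 CPM, against 522 through 592 to 682 CPM in males. No female reached the lowest male in either strain. The log2 fold change was −1.33 ± 0.17 in DBA/2J (edgeR adjusted p = 1.04e-08) and −1.90 ± 0.18 in C57BL/6J (edgeR adjusted p = 1.85e-13). The difference between these effects was 0.56 ± 0.24 and did not pass the test (adjusted p = 0.144).

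Sult3a1, the amine sulfotransferase, was higher in females of both strains. It ran from 851 through 971 to 1346 CPM in DBA/2J Control females, against 0 to 0.222 CPM in males, 11156-fold in the means with 17 counts over the 6 males (edgeR adjusted p = 3.66e-27). C57BL/6J Control females ran from 1.56 through 82.7 to 140 CPM, against 0.0319 to 0.111 CPM in males, 945-fold in the means with 12 counts over the 6 males (edgeR adjusted p = 8.89e-21). Its neighbour Sult3a2 had 185 to 361 CPM in DBA/2J Control females against 0 to 0.0950 CPM in males. In C57BL/6J Control females Sult3a2 had 0.176 to 14.3 CPM against 0 counts in the males, at least 365-fold more.

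The sex difference recurred on the other diets, in libraries that the Control comparison did not use. On Medium Protein 9 of 9 genes were called in DBA/2J and 8 of 9 in C57BL/6J, where 13.2% and 16.5% of all genes were called. On Low Protein the counts were again 9 of 9 in DBA/2J (18.8% of all genes) and 8 of 9 in C57BL/6J (28.2%). Sult2a6, with 5 counts over the Medium Protein and 2 over the Low Protein C57BL/6J females, was the gene not called in that strain. With limma-voom, Sult2a3 lost its call on both diets in both strains (adjusted p of 0.222 to 0.312) and Sult2a7 on Low Protein in C57BL/6J (0.102). Sult2a8 averaged 266 ± 48.8 CPM in DBA/2J Medium Protein females against 779 ± 66.5 CPM in males, and 271 ± 73.8 CPM against 708 ± 63.6 CPM on Low Protein. In C57BL/6J it averaged 168 ± 32.7 CPM in Medium Protein females against 618 ± 79.5 CPM in males, and 134 ± 48.6 CPM against 542 ± 94.4 CPM on Low Protein. Females were again lower in every one of these pairs of groups, without overlap.

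Per kb of all annotated exons of a gene joined together, the families took different places in the strains. This length was 3284 bases for Sult2a8 and 741 for Sult2a2, against 930 to 1278 for the others. The order of the genes thus also depends on which exons are annotated, and transcript lengths in these livers were not measured. In DBA/2J Control females the order of mean levels was Sult3a1 at 912 CPM per kb, Sult3a2 at 261, Sult2a1 at 133, Sult2a8 at 103, Sult2a2 at 53.8, Sult2a5 at 17.2, Sult2a7 at 15.6, Sult2a3 at 14.9 and Sult2a6 at 11.3 CPM per kb. In C57BL/6J Control females it was Sult2a1 at 219 CPM per kb, Sult2a2 at 141, Sult3a1 at 60.9, Sult2a8 at 48.1, Sult2a3 at 19.5, Sult2a7 at 10.3, Sult2a5 at 7.45, Sult3a2 at 6.84 and Sult2a6 at 0.0765 CPM per kb. Neighbours from Sult2a5 to Sult2a6 in DBA/2J, and from Sult2a3 to Sult3a2 in C57BL/6J, differed by less than the larger SD of the pair. The same held for Sult2a1 and Sult2a8 in DBA/2J, Sult2a1 and Sult2a2 in C57BL/6J, and Sult3a1 and Sult2a8 in C57BL/6J. In males Sult2a8 stood first, at 258 CPM per kb in DBA/2J and 179 in C57BL/6J, and Sult2a7 followed at 0.716 and 2.26 CPM per kb.

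**Figure D2:**
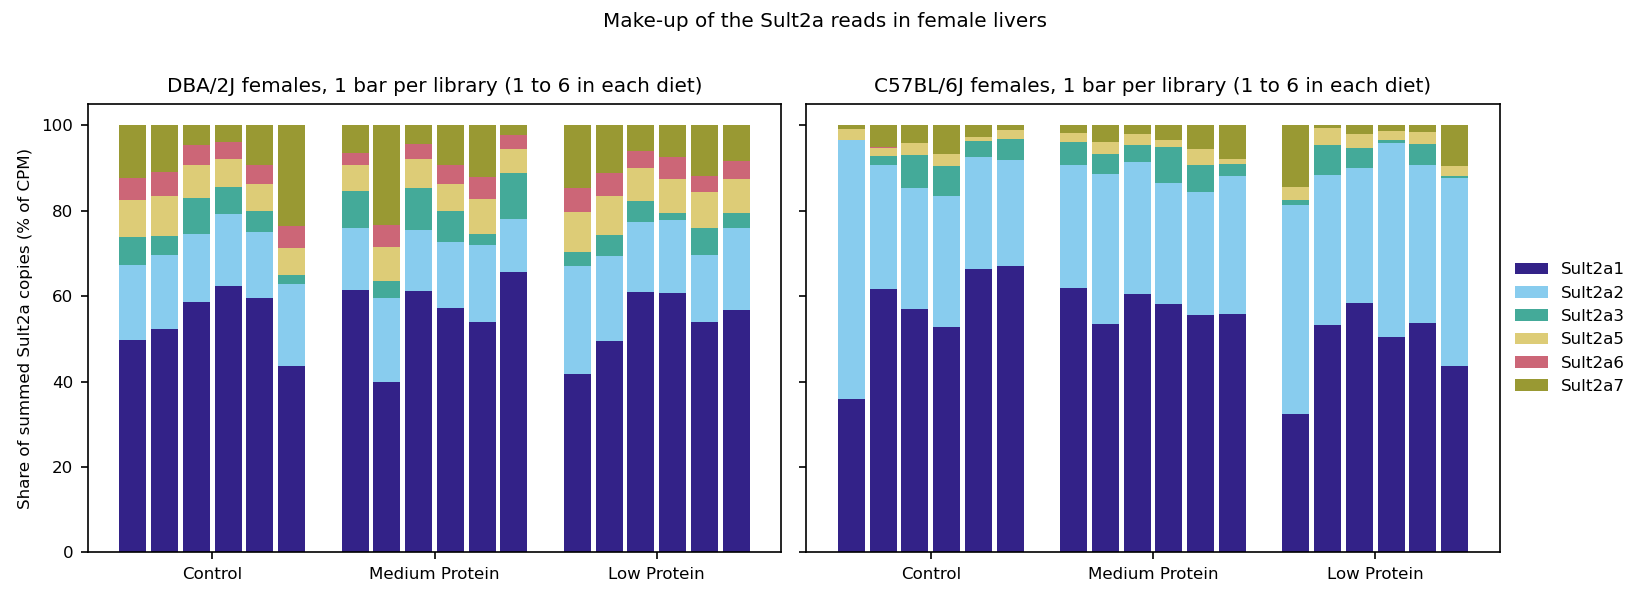
Share of the Sult2a sum taken by each of its 6 copies, in percent of CPM, as 1 stacked bar per female library, with DBA/2J in the left panel, C57BL/6J in the right and the libraries grouped by diet. Over the 18 females of a strain, Sult2a1 takes a median of 56.99% in DBA/2J and 55.7% in C57BL/6J, while Sult2a6 takes 4.41% in DBA/2J and 0.00474% in C57BL/6J.

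The second comparison asks how the strains differ. DBA/2J females on Control had more Sult3a1, Sult3a2, Sult2a6 and Sult2a8 and less Sult2a2 than C57BL/6J females. These were 4 genes higher and 1 lower of the 9, where 13.8% of all genes were higher and 14.0% lower. The 3 adipocyte markers summed to 0.799 to 3.22 CPM in DBA/2J Control females against 9.03 to 43.7 CPM in C57BL/6J Control females, the 5 cholangiocyte markers to 9.60 to 13.9 CPM against 19.5 to 49.3 CPM, and the 3 pancreatic acinar markers to 7.37 to 12.1 CPM against 2.38 to 3.27 CPM. Of the acinar markers 2 were at 0 in all 6 DBA/2J libraries, and no marker of the other sets was. Their part in the strain differences was not tested.

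Sult3a1 averaged 1054 ± 200 CPM in DBA/2J Control females and 70.4 ± 48.7 CPM in C57BL/6J Control females, a log2 fold change of 3.90 ± 0.38 or 15.0-fold in the means (edgeR adjusted p = 2.19e-13). Sult3a2 averaged 243 ± 72.2 CPM in DBA/2J and 6.36 ± 5.22 CPM in C57BL/6J, a log2 fold change of 5.25 ± 0.47 or 38.2-fold (edgeR adjusted p = 8.84e-13). The lowest DBA/2J female stood above the highest C57BL/6J female for both genes on all 3 diets. For the Sult3a sum, which does not depend on how reads were divided between the pair, the log2 fold change was 4.08 ± 0.38 (edgeR adjusted p = 6.71e-14). Sult3a2 made up a median of 18.4% of the Sult3a sum in the 18 DBA/2J females and 7.33% in the 18 C57BL/6J females.

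Sult2a6 averaged 11.0 ± 5.27 CPM in DBA/2J Control females and 0.0741 ± 0.0675 CPM in C57BL/6J Control females, 148-fold in the means (edgeR adjusted p = 1.23e-15). Every one of the 18 DBA/2J females had at least 3.64 CPM, while the C57BL/6J females had at most 0.172 CPM. All counts of this gene were not whole in DBA/2J females and whole in C57BL/6J females. The 18 C57BL/6J females held 23 counts of it in all, with 9 libraries at 0, too few to show how reads were divided. Of the 50-base stretches of Sult2a6, 93.4% were its own.

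Sult2a8 averaged 337 ± 41.6 CPM in DBA/2J Control females and 158 ± 46.8 CPM in C57BL/6J Control females, a log2 fold change of 1.09 ± 0.17 (edgeR adjusted p = 5.83e-07). Sult2a2 averaged 39.8 ± 19.3 CPM in DBA/2J and 104 ± 45.9 CPM in C57BL/6J, a log2 fold change of −1.39 ± 0.35 (edgeR adjusted p = 0.00139), with all 6 DBA/2J values below the C57BL/6J median and the ranges overlapping. Sult2a1, which shares most with Sult2a2, averaged 136 ± 79.1 CPM in DBA/2J and 224 ± 133 CPM in C57BL/6J and did not pass the test (edgeR adjusted p = 0.269). The Sult2a sum had a log2 fold change of −0.62 ± 0.43 (edgeR adjusted p = 0.295), so the copies together did not pass it either. Sult2a5 had a log2 fold change of 1.21 ± 0.58 (edgeR adjusted p = 0.124) and Sult2a7 of 0.60 ± 0.41 (edgeR adjusted p = 0.298), and both were called with limma-voom, at 0.0130 and 0.0239.

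**Figure D3:**
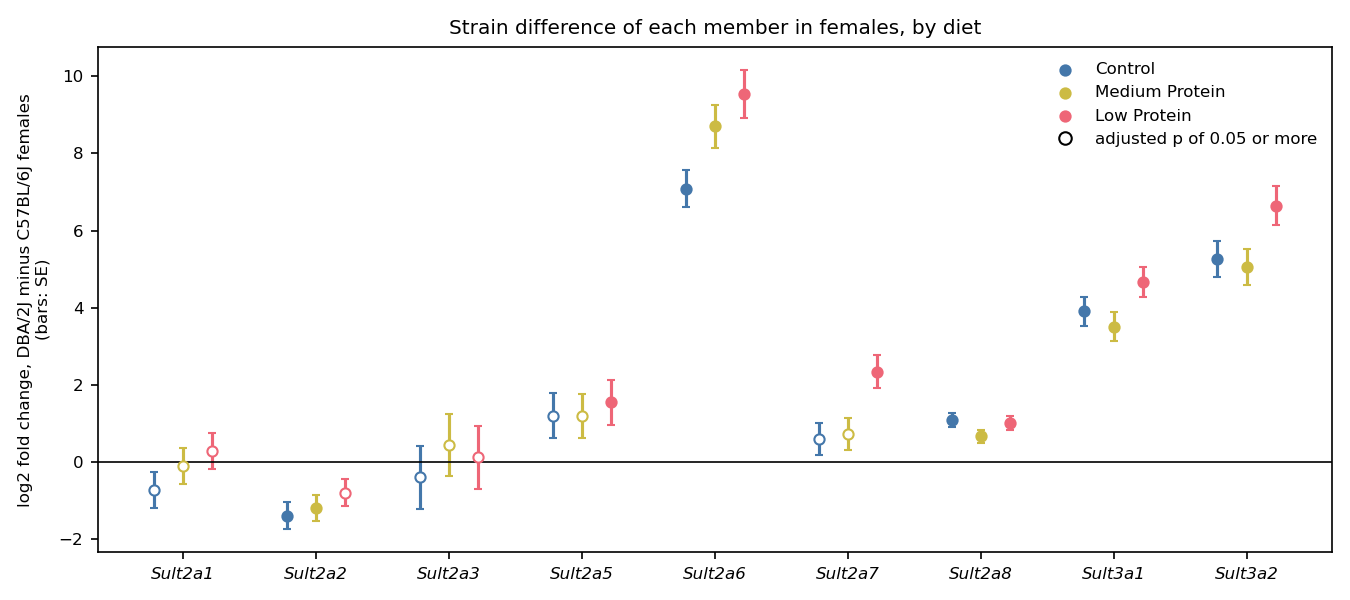
Log2 fold change of each gene in DBA/2J females over C57BL/6J females on each diet, with bars of 1 SE; filled points have an adjusted p under 0.05. Sult3a1, Sult3a2, Sult2a6 and Sult2a8 lie above 0 on all 3 diets, and Sult2a2 lies below 0 on all 3.

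The mixture of Sult2a copies differed between the strains in both directions. Sult2a2 made up a median of 17.0% of the Sult2a sum in the 18 DBA/2J females and 31.3% in the 18 C57BL/6J females, Sult2a5 7.83% and 2.54%, and Sult2a7 9.40% and 3.05%. Sult2a1 made up 56.99% in DBA/2J and 55.7% in C57BL/6J, and Sult2a3 4.99% and 4.55%. These shares are given as a description, since the division of reads between copies enters them.

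On the other diets the same 4 genes were higher in DBA/2J females. On Medium Protein they were joined by lower Sult2a2 (−1.19 ± 0.35, edgeR adjusted p = 0.00695), which made 5 of 9 genes called where 26.5% of all genes were. Without C57BL/6J female Medium Protein 5, Sult2a7 was called too (1.16, edgeR adjusted p = 0.0352), and Sult2a5 was called with limma-voom (adjusted p = 0.0093) and with the spread taken from the 2 groups alone (0.0451). On Low Protein 6 of 9 genes were called, all higher in DBA/2J, where 33.1% of all genes were called. Sult2a7 was among them, at 22.4 ± 14.3 CPM in DBA/2J and 4.36 ± 2.79 CPM in C57BL/6J, a log2 fold change of 2.35 ± 0.44 without overlap (edgeR adjusted p = 1.34e-05).

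Sult2a5 and Sult2a2 lay near the threshold in the Low Protein strain comparison. Sult2a5 averaged 19.7 ± 10.6 CPM in DBA/2J females and 6.76 ± 7.02 CPM in C57BL/6J females (1.55 ± 0.59, edgeR adjusted p = 0.0397). That call was lost at adjusted p of 0.0547 to 0.103 without DBA/2J 2, 3 or 5 or without C57BL/6J 1, 4, 5 or 6, and with DESeq2 (0.0518), robust spread (0.0558) and the spread of the 2 groups alone (0.0758). Sult2a2 averaged 41.9 ± 18.4 CPM in DBA/2J and 72.4 ± 56.96 CPM in C57BL/6J (−0.79 ± 0.35, edgeR adjusted p = 0.0712), and passed the test at adjusted p of 0.0165 to 0.0407 without DBA/2J 5 or C57BL/6J 1, 4 or 6.

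In males edgeR called a strain difference on Control alone, for the 2 genes that males express. These were 1 gene higher and 1 lower of the 9, which does not exceed the shares over all genes given below. On Control, Sult2a8 was higher in DBA/2J males at 848 ± 69.3 CPM, against 588 ± 57.04 CPM in C57BL/6J males (log2 fold change 0.53 ± 0.17, edgeR adjusted p = 0.0134; 14.9% of all genes were higher). Sult2a7 was lower at 0.915 ± 0.243 CPM in DBA/2J males, against 2.89 ± 1.03 CPM in C57BL/6J males (−1.67 ± 0.53, edgeR adjusted p = 0.011; 15.6% of all genes were lower). Neither gene overlapped between the strains. The Sult2a8 call was lost without the 4 ribosomal-like libraries (0.52, adjusted p = 0.055), and the Sult2a7 call with limma-voom (−1.65, adjusted p = 0.206). No gene of the 9 was called on Medium Protein (28.8% of all genes) or Low Protein (35.2%) by edgeR, although all 6 DBA/2J males stood above the C57BL/6J median of Sult2a8 on both diets. Its log2 fold change was 0.34 ± 0.17 on Medium Protein (adjusted p = 0.139) and 0.39 ± 0.17 on Low Protein (adjusted p = 0.0712; 0.0462 without C57BL/6J male Low Protein 3). With the spread taken from the 2 groups alone it was called on both, at adjusted p = 0.0152 on Medium Protein and 0.0151 on Low Protein. In Control males the 4 small intestine markers summed to 88.4 to 108 CPM in DBA/2J against 49.5 to 58.8 CPM in C57BL/6J, the cholangiocyte markers to 11.7 to 17.9 CPM against 24.2 to 30.2 CPM and the pancreatic acinar markers to 14.1 to 24.8 CPM against 3.12 to 6.19 CPM, with 1 small intestine marker at 0 in all 6 DBA/2J libraries and 1 acinar marker at 0 in all 6 C57BL/6J libraries, and their part was not tested.

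The third comparison, the one the series was built on, asks what less protein in the diet does. Of the 9 genes, Sult2a7 fell in Low Protein C57BL/6J females, and none passed the test in the other 3 combinations of strain and sex. The share of all genes called by edgeR was 3.25% in C57BL/6J females, 9.78% in C57BL/6J males, 0.816% in DBA/2J females and 0.093% in DBA/2J males. At an unadjusted p under 0.05 these comparisons held 3216, 4470, 2233 and 1476 genes.

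Sult2a7 ran from 1.09 through 3.38 to 8.21 CPM in Low Protein C57BL/6J females, against 0.499 through 11.5 to 27.1 CPM in Control C57BL/6J females. All 6 Low Protein values lay below the Control median, and the groups overlapped because of Control 1, the lowest library of both groups. The log2 fold change was −1.59 ± 0.43 (edgeR adjusted p = 0.024). Leaving out Control 1 gave −1.86 (adjusted p = 0.00211), and the call was lost without Control 3 (−1.39, adjusted p = 0.0643) or 4 (−1.26, 0.131), or without Low Protein 2 (−1.50, 0.0609), 4 (−1.40, 0.0702) or 6 (−1.53, 0.0505). It was also lost with limma-voom (adjusted p = 0.265), with the spread taken from the 2 groups alone (0.282) and with the letter of the labels' codes as a covariate (0.0706). The authors' deposited table gives a log2 fold change of −1.16 with an adjusted p of 0.249. Adipocyte markers summed to 20.04 to 66.4 CPM in these Low Protein females against 9.03 to 43.7 CPM in the Control females, and their part was not tested.

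The other 8 genes had fitted log2 fold changes below 0 in Low Protein C57BL/6J females, none of them called. Sult3a2 averaged 2.54 ± 1.86 CPM on Low Protein and 6.36 ± 5.22 CPM on Control (−1.33 ± 0.45, edgeR adjusted p = 0.0891). Sult3a1 averaged 43.9 ± 15.0 CPM on Low Protein and 70.4 ± 48.7 CPM on Control (−0.68 ± 0.34, edgeR adjusted p = 0.301). Without Control 1 both were called, at −1.60 (adjusted p = 0.0112) and −0.95 (adjusted p = 0.0182), which made 3 genes of 9, and without Control 6 Sult3a2 was called beside Sult2a7 (−1.53, adjusted p = 0.0368). The authors' deposited table gives 0.06 for Sult3a1 with an adjusted p of 0.963.

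**Figure D4:**
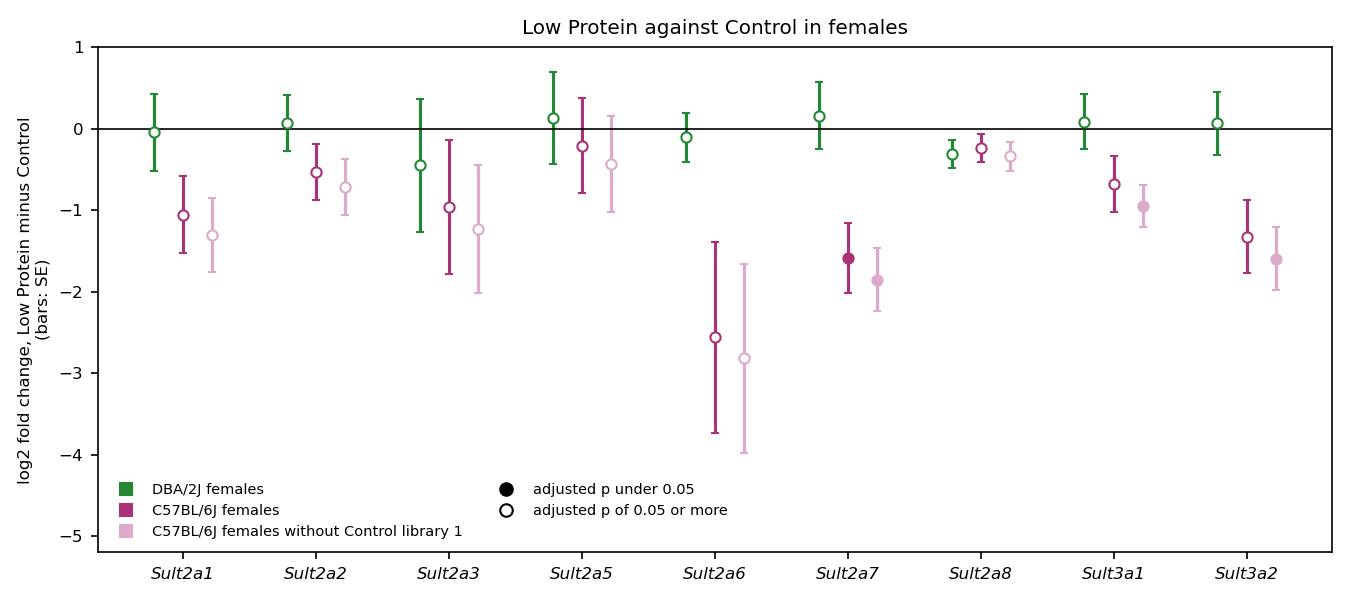
Log2 fold change of each gene on Low Protein over Control in females, with bars of 1 SE, for DBA/2J and C57BL/6J, and for C57BL/6J without Control 1; filled points have an adjusted p under 0.05. The C57BL/6J values lie below 0 for all 9 genes, and the DBA/2J values lie between −0.45 and 0.16.

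That Control library stood apart from the other 5 in more than these genes. It was the lowest of its group, or tied at 0 for Sult2a6, for 9 of 9 genes, with 20.3 CPM of Sult2a1 against 150 to 410 CPM in the others and 1.56 CPM of Sult3a1 against 29.2 to 140 CPM. It was also the lowest for 22 of 29 other female-biased liver genes, and of 26 male-biased ones it was the highest for 10 and the lowest for 7. Asns, asparagine synthetase, stood at 7.43 CPM in it against 0 to 0.490 CPM in the others, and Mup20, a male-biased urinary protein gene, at 195 CPM against 14.8 to 42.5 CPM. Its Sult3a1 level still lay above all males. What sets this library apart was not tested.

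In the Sult2a genes of Low Protein C57BL/6J females the 6 libraries fell far apart from each other. The Sult2a sum was 35.7, 56.9 and 78.3 CPM in libraries 6, 1 and 4 and 227, 344 and 465 CPM in libraries 5, 3 and 2, against 56.5 to 611 CPM on Control with a median of 393 CPM. Sult3a1 in the same 3 low libraries was 60.7, 37.5 and 37.1 CPM, and 47.0, 59.6 and 21.4 CPM in the 3 others. The order of the libraries by Sult3a1 was thus not that by the Sult2a sum. The Sult2a sum had a log2 fold change of −0.88 ± 0.43 (edgeR adjusted p = 0.283), and of −1.11 without Control 1 (adjusted p = 0.123).

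In DBA/2J females none of the 9 genes passed the test of Low Protein against Control. Sult3a1 averaged 1118 ± 136 CPM on Low Protein and 1054 ± 200 CPM on Control (0.08 ± 0.34, edgeR adjusted p = 0.964). Sult2a7 averaged 22.4 ± 14.3 CPM on Low Protein and 19.99 ± 6.95 CPM on Control (0.16 ± 0.41, edgeR adjusted p = 0.939). The difference between the Sult2a7 effects of the strains was 1.75 ± 0.59, DBA/2J minus C57BL/6J, with an adjusted p of 0.201 by edgeR, and none of the 9 genes passed this test of a strain difference in the effect (0.093% of all genes did, and 2147 had an unadjusted p under 0.05).

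In males, Sult2a7 ran from 0.461 through 1.25 to 1.89 CPM in Low Protein C57BL/6J males, against 2.11 through 2.63 to 4.86 CPM in Control C57BL/6J males. The groups did not overlap, yet the log2 fold change of −1.29 ± 0.50 did not pass the edgeR test at an adjusted p of 0.0905, and it passed with the spread taken from the 2 groups alone (adjusted p = 0.0165). Red blood cell markers summed to 143 to 406 CPM in Low Protein C57BL/6J males against 108 to 224 CPM in Control males and adipocyte markers to 13.3 to 34.9 CPM against 3.25 to 10.8 CPM, and their part was not tested. The difference between the female and the male effect in C57BL/6J was −0.30 ± 0.66 for Sult2a7 (edgeR adjusted p = 0.865), and none of the 9 genes was called in it, where 4.56% of all genes were. Sult2a8 in DBA/2J males ran from 594 to 769 CPM on Low Protein against 781 to 951 CPM on Control, again without overlap and without passing the test (−0.26 ± 0.17, edgeR adjusted p = 0.772). The share of all genes without overlap was not computed, so the lack of overlap is given as a description only.

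Medium Protein against Control called none of the 9 genes in any combination. The share of all genes called by edgeR was 0.0% in C57BL/6J females, 0.418% in C57BL/6J males and 0.00516% in DBA/2J females and again 0.00516% in DBA/2J males, with 1465, 1967, 517 and 769 genes at an unadjusted p under 0.05. Sult2a7 averaged 12.9 ± 8.67 CPM in Medium Protein C57BL/6J females and 13.2 ± 9.77 CPM in Control C57BL/6J females. Low Protein against Medium Protein, which shares the Low Protein libraries with the comparison above, called Sult2a7 in C57BL/6J females (−1.56 ± 0.43, edgeR adjusted p = 0.0377; 1.94% of all genes). That call was lost at adjusted p of 0.0647 to 0.221 without Medium Protein 4 or 5 or Low Protein 2, 4, 5 or 6, and with library totals (0.0526), no filter (0.0543), limma-voom (0.0969) and the spread of the 2 groups alone (0.128). Sult3a2 was called without Medium Protein 5 or Low Protein 3 or 5 (adjusted p of 0.0358 to 0.0475). For this comparison the authors' deposited table gives −1.62 for Sult2a7 with an adjusted p of 0.0921 and −1.76 for Sult3a2 with an adjusted p of 0.046.

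Within groups, levels of the copies that share reads moved together from library to library. Over the 36 females, with group means removed, Sult2a1 followed Sult2a2 at r = 0.962, Sult2a3 at 0.952 and Sult2a5 at 0.917, and Sult2a6 at 0.632 and Sult2a7 at 0.420. Sult3a1 and Sult3a2 had r = 0.918, and Sult2a7 followed Sult3a1 at 0.621. These values are descriptions, since the genes share libraries and the near-identical ones share reads.

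Of 3 relations computed between the families over all 72 libraries, the Sult2a sum and Sult3a1 had Pearson r = 0.338 (two-sided permutation within groups, p = 0.0305, adjusted p = 0.0458) and Spearman rho = 0.255 (permutation p = 0.0328, adjusted p = 0.0492). Without the 2 libraries farthest out, C57BL/6J female Control 1 and Low Protein 6, r was 0.189, so the relation rested on them. Sult3a1 and Sult2a8 had r = 0.314 (permutation p = 0.0127, adjusted p = 0.0381) and rho = 0.291 (permutation p = 0.0176, adjusted p = 0.0492), and r = 0.196 without Control 1 and Control 5 of the C57BL/6J females. The Sult2a sum and Sult2a8 had r = 0.150 (permutation p = 0.436, adjusted p = 0.436) and rho = 0.109 (permutation p = 0.437, adjusted p = 0.437). In the 36 females alone, chosen after the data were seen because males hold few counts of Sult3a1, r for Sult3a1 and Sult2a8 was 0.420 (permutation p = 0.00557, adjusted p = 0.0167), rho 0.523 (permutation p = 0.0029, adjusted p = 0.0087) and r without Control 1 and 5 was 0.375. For the Sult2a sum and Sult3a1 the females gave r = 0.285 (permutation p = 0.183, adjusted p = 0.274) and −0.052 without Control 1 and Low Protein 6.

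**Figure D5:**
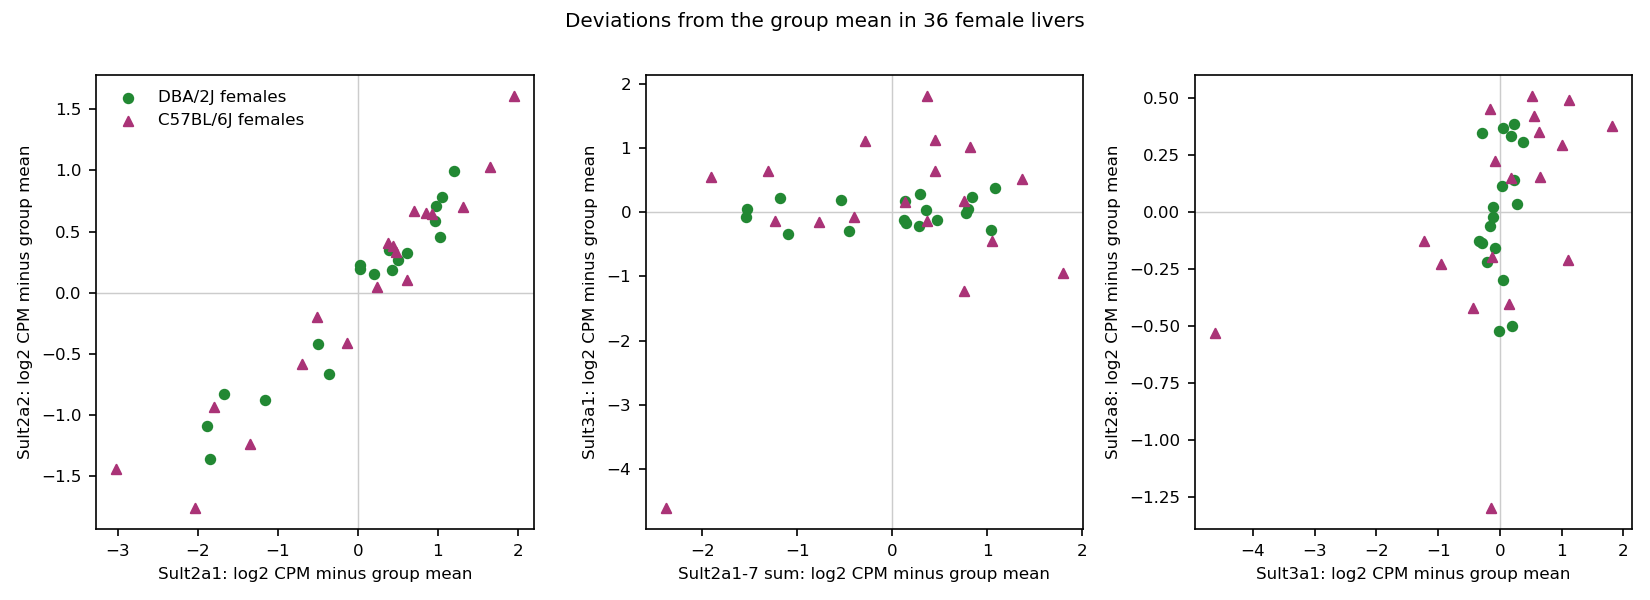
Deviation from the group mean in log2 CPM per female library (1 point each, DBA/2J as circles and C57BL/6J as triangles), for Sult2a2 against Sult2a1 (left), Sult3a1 against the Sult2a sum (middle) and Sult2a8 against Sult3a1 (right). In the middle panel C57BL/6J Control 1 is the point at the lower left corner, and in the left panel the points lie along a rising line (r = 0.962).

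The letters around the start of these genes are shown because several Sult2a copies move together while Sult2a8 runs the other way. RefSeq promoters (GRCm38.p6, 250 bases before to 50 after the start) matched 6 of the 9 genes by symbol, with 7 entries. Shown are Sult2a3 (chr7:14122999-14123298, minus strand), Sult2a5 (chr7:13623717-13624016, plus), Sult2a6 (chr7:14254821-14255120, minus), both entries of Sult2a8 (chr7:14446538-14446837 and then chr7:14438502-14438801, minus) and Sult3a1 (chr10:33857472-33857771, plus). Capitals mark matches on either strand to GTTAAT (a core of HNF1 sites), AGGTCA (a core of nuclear receptor sites), ATCAAT (a core of one cut sites), TTCNNNGAA (a STAT5 site) or TGTTTAC (a forkhead core), and no match overlapped another. The first Sult2a8 entry covers the start of the gene in GENCODE M21, and the second lies inside the gene.
Sult2a3: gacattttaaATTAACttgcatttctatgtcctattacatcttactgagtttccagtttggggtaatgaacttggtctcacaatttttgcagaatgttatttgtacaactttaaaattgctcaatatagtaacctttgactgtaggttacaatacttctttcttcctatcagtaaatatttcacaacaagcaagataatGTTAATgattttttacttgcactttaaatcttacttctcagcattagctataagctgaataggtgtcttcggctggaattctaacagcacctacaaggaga
Sult2a5: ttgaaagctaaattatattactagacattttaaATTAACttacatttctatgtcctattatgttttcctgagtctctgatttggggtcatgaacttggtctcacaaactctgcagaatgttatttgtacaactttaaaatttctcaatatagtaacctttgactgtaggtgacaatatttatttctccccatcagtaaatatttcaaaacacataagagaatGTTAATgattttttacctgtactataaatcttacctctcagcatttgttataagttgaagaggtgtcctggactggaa
Sult2a6: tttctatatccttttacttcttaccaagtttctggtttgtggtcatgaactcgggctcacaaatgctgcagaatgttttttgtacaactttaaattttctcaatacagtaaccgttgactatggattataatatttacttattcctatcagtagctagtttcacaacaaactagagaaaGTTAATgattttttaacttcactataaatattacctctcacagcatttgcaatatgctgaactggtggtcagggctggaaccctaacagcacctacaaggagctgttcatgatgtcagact
Sult2a8: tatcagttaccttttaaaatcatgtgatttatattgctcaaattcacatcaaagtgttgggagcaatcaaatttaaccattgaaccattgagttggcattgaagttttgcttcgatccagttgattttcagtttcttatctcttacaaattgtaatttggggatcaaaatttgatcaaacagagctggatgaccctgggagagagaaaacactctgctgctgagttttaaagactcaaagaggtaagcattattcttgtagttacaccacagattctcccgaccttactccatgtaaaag
Sult2a8: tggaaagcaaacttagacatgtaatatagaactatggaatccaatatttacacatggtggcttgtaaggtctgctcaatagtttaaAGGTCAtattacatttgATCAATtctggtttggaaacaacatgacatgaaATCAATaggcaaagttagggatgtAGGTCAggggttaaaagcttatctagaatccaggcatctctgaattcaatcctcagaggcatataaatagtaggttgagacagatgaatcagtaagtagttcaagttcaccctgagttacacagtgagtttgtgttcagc
Sult3a1: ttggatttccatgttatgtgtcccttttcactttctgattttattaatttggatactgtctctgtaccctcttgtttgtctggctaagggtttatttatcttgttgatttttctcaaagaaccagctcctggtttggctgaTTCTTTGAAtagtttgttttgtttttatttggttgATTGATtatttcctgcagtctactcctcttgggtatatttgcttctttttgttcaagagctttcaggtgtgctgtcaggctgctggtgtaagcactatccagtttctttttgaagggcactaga
GTTAAT occurred in the promoters of Sult2a3, Sult2a5 and Sult2a6, in the entry of Sult3a2, and in 7.10% of the 32851 promoters of the table. The Sult3a2 entry (chr10:33782066-33782365, minus strand), which is not shown, lies inside the gene as annotated in GENCODE M21. The Sult2a5 promoter was 87.4% identical to that of Sult2a3 and 80.9% to that of Sult2a6. It was 45.3% identical to the first Sult2a8 entry, at the annotated start, and 37.9% to the second, inside the gene. The Sult2a8 entry inside the gene held AGGTCA at 2 places (16.3% of all promoters hold it) and ATCAAT at 2 (7.54%), and the entry at the annotated start held none of the 5 motifs. The Sult3a1 promoter held TTCNNNGAA once (8.30% of all promoters) and ATCAAT once, and TGTTTAC was in none of the 7 entries (3.65% of all promoters). A match of letters is no evidence that a factor binds there.

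Other genes of sulfation were called in both directions between the sexes. Of 12 other cytosolic sulfotransferases, 8 were tested, and 4 were higher and 1 lower in DBA/2J Control females than males, and 4 higher and 2 lower in C57BL/6J. Sult2a4, a further Sult2a copy, averaged 3.02 ± 1.28 CPM in DBA/2J Control females against 0 counts in males, and Sult1e1, the estrogen sulfotransferase, 11.7 ± 4.67 CPM against 1.16 ± 0.506 CPM (edgeR adjusted p = 0.000417). Sult5a1 was lower in females of both strains, with a log2 fold change of −1.15 ± 0.32 in DBA/2J and −1.34 ± 0.35 in C57BL/6J (edgeR adjusted p = 0.00659 and 0.00356). The 12 tested genes of PAPS supply and sulfate transport held 1 higher and 2 lower in DBA/2J and 1 higher and 1 lower in C57BL/6J, beside 7.85% higher and 10.4% lower in DBA/2J and 9.18% and 11.6% in C57BL/6J over all genes tested. Among them Papss2, which makes PAPS in liver, averaged 182 ± 42.8 CPM in DBA/2J Control females against 114 ± 33.6 CPM in males (0.67 ± 0.16, edgeR adjusted p = 0.00139), and 193 ± 22.2 CPM against 183 ± 12.7 CPM in C57BL/6J (edgeR adjusted p = 0.78). On Low Protein, Sult1e1 fell to 0.304 ± 0.325 CPM in C57BL/6J females, against 7.47 ± 5.68 CPM on Control (−4.60 ± 0.84, edgeR adjusted p = 0.000492), and Sult1a1, Sult1b1 and Sult1d1 fell in C57BL/6J males by 0.55, 0.76 and 0.59 on the log2 scale (edgeR adjusted p = 0.00181, 0.00483 and 0.0097).

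Known sex-biased genes showed the direction of the sex labels. Of 29 other female-biased liver genes, 22 were higher and 1 lower in DBA/2J Control females and 23 higher and 1 lower in C57BL/6J, with median log2 fold changes of 3.48 and 2.97 beside 0.01 and 0.02 over all genes tested. Of 33 tested male-biased genes, 31 and 28 were lower in females and none was higher. Cux2, a female-biased liver transcription factor, averaged 39.0 ± 13.7 CPM in DBA/2J Control females against 0.432 ± 0.106 CPM in males, and 22.4 ± 5.62 CPM against 1.87 ± 1.03 CPM in C57BL/6J. Of 33 tested nuclear receptors and regulators, 9 were higher and 2 lower in DBA/2J Control females and 5 higher and 6 lower in C57BL/6J. Over all genes tested 7.85% were higher and 10.4% lower in DBA/2J, and 9.18% and 11.6% in C57BL/6J. Prlr, the prolactin receptor, averaged 409 ± 64.1 CPM in DBA/2J Control females against 108 ± 30.9 CPM in males (edgeR adjusted p = 8.83e-13).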

How the data were processed

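RNA from fasted mouse liver was sequenced as stranded polyadenylated libraries over 2 lanes merged before quantification, per the labels' protocols. Per the submitters' processing notes, the tools included limma, edgeR and RSEM, run with R 3.4.3. Aligner, genome build and annotation were not given in the sources used here. Gene values deposited by the authors are RSEM expected counts (11.6% of values not whole), which were rounded here before testing. A table deposited by the authors gives log2 fold changes and p-values of diet comparisons for 17575 genes. The score in that table, an F statistic per gene computed by the authors and deposited as is, per the file headers, was not used. Its fold changes are the second-named diet minus the first. Names came from GENCODE M21 by Ensembl identifier (51719 matched, 193 did not).

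All 72 libraries, of 26.9 to 38.4 M counts, were fitted together with edgeR 4.0.16 (R 4.3.3) by quasi-likelihood, with 1 mean for each of the 12 groups, TMM factors and filterByExpr, which left 19362 genes. Tests were two-sided, with Benjamini-Hochberg adjustment over all genes tested and a threshold of 0.05. The common biological coefficient of variation was 0.207. The procedure was tested on simulated counts. CPM are after TMM scaling. Bounds take 3 counts over a group at 0, and 95% exact intervals cover counting error only. Relations used residuals from group means and 100000 permutations within groups. Coding sequences were aligned with mafft 7.526.

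Alternatives were summed copies, RLE factors, library totals, no filter, a filter of 1 CPM in 6 libraries, DESeq2 1.42.0, limma-voom (limma 3.58.1), the letter of the labels' codes as a covariate, robust spread, the compared groups only and leaving out each library. Leaving out the 4 ribosomal-like libraries, and relations in females alone, were added after the data were seen. The genes and lists were chosen with earlier results of these data known. All 9 genes were tested in each comparison, and in the diet comparisons with few or no calls only some of them are named. From each companion list, genes shown are among the up to 4 called with the smallest adjusted p and the 2 most abundant others. Of the genes nearest in pattern, 1 is not reported here.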

Additional observations from a re-analysis of the deposited data

Results flagged for a closer look

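Among 63 sets of 6 libraries with a mean of at least 10 counts, 6 held a library whose distance to its nearest neighbour exceeded Dixon's 95% critical share of the range of the group. Chance flags about 1 in 20 groups. C57BL/6J female Control 1 was the lowest of its group for 4 of these. It had 20.3 CPM of Sult2a1 against 150 to 410 CPM in the other libraries (gap 0.665 of the range), 0.0294 CPM of Sult2a3 against 5.46 to 40.3 CPM (0.674), 0.499 CPM of Sult2a7 against 6.83 to 27.1 CPM (0.647) and 1.56 CPM of Sult3a1 against 29.2 to 140 CPM (0.649). C57BL/6J male Medium Protein 2 had 471 CPM of Sult2a8 against 615 to 693 CPM in the others (0.689), and DBA/2J female Medium Protein 5 had 142 CPM of Sult3a2 against 223 to 283 CPM (0.655).

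The sex difference of Sult2a7 on Control differed between the strains by a test of the difference itself, 2.26 ± 0.67 on the log2 scale, DBA/2J minus C57BL/6J (edgeR interaction, adjusted p = 0.0223). It was 1 of 9 genes called, where 8.39% of all genes were. The call was lost without C57BL/6J male Control 4 (edgeR adjusted p = 0.0522) and with limma-voom (adjusted p = 0.0814).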

How the results depend on the processing

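With the copies summed, which leaves 3 features, 3 were called for sex in each strain, 2 for strain in females and 0 for Low Protein in C57BL/6J females. Low Protein in C57BL/6J females also had 0 calls, in place of 1, with limma-voom, with the code letter as a covariate and with the compared groups only, and Low Protein in C57BL/6J males had 1 with the compared groups only. Strain in males had 1 call, in place of 2, with limma-voom and without the ribosomal-like libraries. The Sult2a6 interaction of sex and strain on Control was called with DESeq2 (adjusted p = 1.49e-05) and limma-voom (0.0305), and that of Sult3a1 with DESeq2 (0.00196). The cause was not tested. Leaving out 1 library at a time gave 8 to 9 genes for sex in C57BL/6J, 9 to 9 in DBA/2J, 5 to 5 for strain in females, 2 to 2 in males, 0 to 3 for Low Protein in C57BL/6J females and 0 to 0 in each of the other 3 combinations. No value with a call changed sign under any alternative run. Among values without 1 library, 4270 kept their side of the threshold with no change of sign, and 175 changed sign with no call. A call was lost in 30 and gained in 13. Under the other alternatives these were 3010, 51, 25 and 12. No paired analysis was possible because the identifiers in the sample titles are not explained as replicate numbers and each occurs once within a strain and sex, so none links libraries of different diets, and animals of different sex or strain cannot be the same. With 6 libraries a group, folds of genes at single counts in males rest on few counts, and the division of reads limits single Sult2a copies.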

Other observations

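Over the 12 group means, 11588 non-member genes were ranked by Pearson r with these genes, as a description of groups that share strain, sex and diet. Genes without a name, predicted genes with Gm or Rik names and genes with a mean log2 CPM under 0 were left out of the ranking. Cyp2a4 (r = 0.988), Zbed4-ps2 (0.988), Slc22a26 (0.987) and Cyp3a41a (0.982) were among the nearest to the Sult2a sum. Akr1c6 (0.996), Cmah (0.988), Acsm5 (0.984), Keg1 (0.983) and Slc22a28 (0.980) were nearest to Sult2a8. Hao2 (0.995), Cyp3a16 (0.990), Cyp3a41b (0.990), A1bg (0.989) and Fam84b (0.987) were nearest to Sult3a1.

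Bile acids are substrates of the SULT2A enzymes. Of 24 tested genes of bile acid synthesis, conjugation and transport, 5 were higher and 8 lower in DBA/2J Control females, and 3 higher and 11 lower in C57BL/6J, beside 7.85% higher and 10.4% lower in DBA/2J and 9.18% and 11.6% in C57BL/6J over all genes tested. Cyp7b1, an oxysterol hydroxylase of the alternative bile acid pathway, averaged 14.1 ± 8.57 CPM in DBA/2J Control females against 341 ± 79.8 CPM in males (edgeR adjusted p = 7.56e-16), and 8.38 ± 3.41 CPM against 87.7 ± 38.0 CPM in C57BL/6J (edgeR adjusted p = 3.09e-11). Slco1a1, an uptake transporter of organic anions, averaged 34.6 ± 25.1 CPM in DBA/2J females against 669 ± 81.4 CPM in males, and 15.1 ± 4.46 CPM against 278 ± 91.5 CPM in C57BL/6J. Of 11 tested sulfatase genes, which act in the opposite direction by removing sulfate, 1 was higher and 3 lower in DBA/2J Control females and 0 higher and 4 lower in C57BL/6J. Arsa, arylsulfatase A, averaged 14.5 ± 3.18 CPM in DBA/2J females against 41.7 ± 3.41 CPM in males, and 14.3 ± 6.47 CPM against 51.3 ± 7.72 CPM in C57BL/6J (edgeR adjusted p = 9.88e-11 and 1.85e-13).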
